A study of Rattus norvegicus with 50 samples.

Results

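Peripheral blood mononuclear cells (PBMC) of rats that had received leptin as pups and later ate a high-fat diet were set against PBMC of rats that ate the same diet without early leptin. The comparison rests on 17 of the 50 arrays of the series, 9 from MONW-Lep rats and 8 from MONW rats, chosen by their titles alone. MONW stands for metabolically obese, normal-weight, a state in which fat gain and metabolic disturbance come without excess body weight. MONW-Lep rats were male Wistar pups given recombinant murine leptin by mouth from day 1 to day 20 of life, in Captisol and in an amount set as a multiple of the daily intake from milk, and from day 23 a high-fat diet in which fat supplied 60% of the calories. MONW rats had the same sex, strain and diet and received the Captisol vehicle without leptin. NW rats, 8 arrays, received vehicle and a diet in which fat supplied 10% of the calories, and they entered the statistical fit for their share of the spread. All groups were fed isocaloric amounts, and blood was taken at 3.5 months, so leptin had ended long before. The pups came from 8 litters, and the litter of each rat is not given, so the p-values measure the spread between rats without regard to litter. The hippocampus of the same 25 rats was measured on the same kind of array.

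Leptin is a hormone that fat cells release into the blood and that milk also carries. It acts through a cytokine-type receptor whose main messengers are the Janus kinase Jak2 and the transcription factors Stat3 and Stat5, and the suppressor Socs3 damps that signal. Lymphocytes and monocytes, which make up PBMC, can carry this receptor, and leptin is known in them mostly for favouring inflammatory and T helper responses. Platelets are small cell fragments that tend to stay in PBMC fractions and bring RNA of their own. Gene levels were measured as log2 values after RMA, the authors' normalization, so that a difference of 1 is a doubling of the signal. Array medians lay between 6.66 and 6.75, and the median correlation of an array with the others between 0.974 and 0.986. Each of the 15049 genes with a symbol in the array annotation was tested with limma. The level of the leptin receptor was not analysed here, since no row of the annotation used bears its symbol.

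Gene levels in PBMC differed little between MONW-Lep and MONW. Of 15049 genes, 369 (2.45%) passed the study's threshold of an unadjusted p under 0.05, 202 (1.34%) with higher and 167 (1.11%) with lower levels in MONW-Lep. At that threshold 752 genes would pass if no gene differed and p-values were evenly spread. No gene (0 of 15049) reached a Benjamini-Hochberg adjusted p under 0.05 in limma, the smallest being 0.9999, and the smallest unadjusted p was 0.000882. Every p below is therefore unadjusted unless named otherwise, and single genes are described, not declared changed. Differences above 0 were found for 7533 genes (50.1%). The median size of the difference was 0.25 among the 369 genes and 0.06 among all genes, against a median SE of 0.103. Only 37 genes differed by more than 0.5, and 4 of these passed the threshold. Genes of low signal passed more often, with 92 of 2172 (4.24%) below a mean log2 value of 5, 192 of 5634 (3.41%) from 5 to below 7 and 85 of 7243 (1.17%) at 7 or above.

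**Figure D1:**
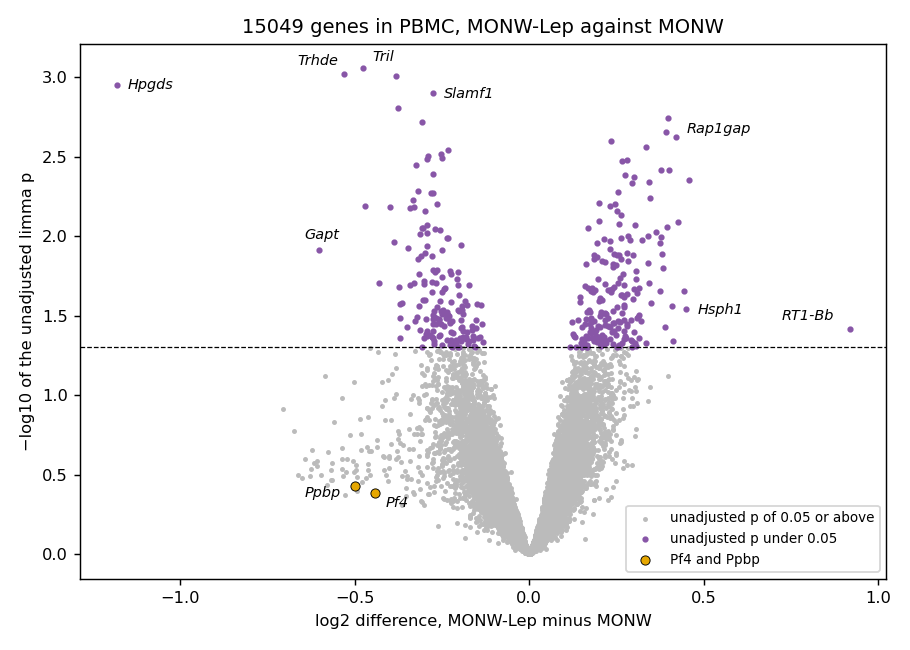
The log2 difference, MONW-Lep minus MONW, of each of 15049 genes in PBMC (x axis) against the −log10 of its unadjusted limma p (y axis), with the threshold of 0.05 as a dashed line. *Hpgds* lies far to the left at -1.18 and *RT1-Bb* far to the right at 0.92, while *Pf4* and *Ppbp*, at -0.44 and -0.50, lie well below the line.

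The largest difference past the threshold was that of *Hpgds*, the hematopoietic enzyme that turns prostaglandin H2 into prostaglandin D2. Its lowest, median and highest log2 values were 5.27, 5.61 and 6.74 in MONW-Lep, against 5.59, 6.86 and 8.23 in MONW and 5.47, 5.61 and 7.78 in NW. The MONW-Lep values lay close together except for replicate 1, while the MONW values were spread widely, and 4 of 9 MONW-Lep arrays were below the lowest MONW array. The mean was 5.70 ± 0.42 in MONW-Lep (SD, n = 9) and 6.88 ± 0.94 in MONW (SD, n = 8), a 2.27-fold lower level (log2 -1.18, SE 0.32, limma p = 0.00112, exact permutation p = 0.00452, two-sided). Against NW, whose arrays form an own comparison for each group, *Hpgds* differed by -0.21 in MONW-Lep, short of the threshold, and by 0.97 in MONW, past it, where the MONW arrays are those of the main comparison. Over all genes 715 (4.75%) passed the threshold in MONW-Lep against NW and 452 (3%) in MONW against NW, and 0 reached an adjusted p under 0.05 in limma in either. These counts share the NW arrays, and the difference between them was not tested. The difference stayed between -1.37 and -0.99 when each of the 17 arrays was left out in turn, and passed in all 17 fits.

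Neutrophil granule genes were set beside *Hpgds*. The MONW-Lep array with the highest *Hpgds* value, replicate 1, also had the highest *S100a8* value of its group (6.95, against 4.75 to 5.85 in the other MONW-Lep arrays), and the NW array with the highest *Hpgds* value, replicate 1, had 6.98. In MONW the highest *Hpgds* values were in replicates 6, 8, 1 and 5 (8.23, 7.78, 7.52 and 7.14). The same arrays had the highest *S100a8* values (6.57, 7.07, 5.85 and 6.43) and *S100a9* values (7.70, 7.77, 7.31 and 7.60) of the group. In the other MONW arrays *S100a9* ran from 6.33 to 6.79. By contrast, NW replicate 7 had an *S100a9* value of 7.30 and an *Hpgds* value of 5.54. *S100a8* and *S100a9* encode the calprotectin subunits that neutrophils and monocytes carry. The difference of *S100a8* between the groups was -0.33 (SE 0.26) and that of *S100a9* -0.31 (SE 0.22). None of the 18 measured neutrophil granule genes passed the threshold, against 2.45% of all genes, and 6 of 18 lay above 0. Their score, the mean of their log2 values less each gene's mean over the PBMC arrays, ran from -0.20 to 0.51 in MONW-Lep, against -0.21 to 0.21 in MONW. With that score as a covariate the *Hpgds* difference was -1.03 and passed the threshold. The score, which averages all 18 genes, was 0.08 in MONW replicate 6 and 0.17 in MONW replicate 8, the arrays with the highest *S100a9* values of that group. It therefore follows these 2 genes only in part, and whether the *Hpgds* difference goes with *S100a8* and *S100a9* was not tested.

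Of the 34 measured genes of prostaglandin and leukotriene synthesis and signalling, 2 passed the threshold (5.88%, against 2.45% of all genes), *Hpgds* with lower and *Ptger4*, a receptor for prostaglandin E2, with higher levels (log2 0.29, SE 0.14, limma p = 0.0495, exact permutation p = 0.0943), and the list's median was -0.06, against 0.000 over all genes. *Ptgds*, the brain-type prostaglandin D synthase, differed by 0.03 (SE 0.13), *Ptgs2*, the inducible cyclooxygenase, by -0.12 (SE 0.17) and *Ptgdr2*, a prostaglandin D2 receptor, by 0.02 (SE 0.12). *Ptgs1*, the constitutive cyclooxygenase that platelets use, differed by -0.53 (SE 0.53).

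Of the other 9 genes with the largest lower levels past the threshold, *Gapt* and *Trhde* followed *Hpgds*. *Gapt*, a membrane adaptor of B cells that binds Grb2, had log2 values of 5.65, 6.22 and 6.87 (lowest, median, highest) in MONW-Lep, against 6.12, 6.98 and 7.57 in MONW. Its levels overlapped between the groups, and NW (median 6.90) was near MONW. The mean difference was -0.60 (SE 0.22, limma p = 0.0122, exact permutation p = 0.0214). *Trhde*, which degrades thyrotropin-releasing hormone, ran from 4.28 to 5.23 in MONW-Lep, against 4.79 to 5.74 in MONW (log2 -0.53, SE 0.14, limma p = 0.000958, exact permutation p = 0.00539). *Tril*, an accessory protein of Toll-like receptor 4, had the smallest p of all genes. It had log2 values of 4.87, 5.09 and 5.49 in MONW-Lep, against 5.33, 5.60 and 6.11 in MONW, and 6 of 9 MONW-Lep arrays were below every MONW array (log2 -0.48, SE 0.13, limma p = 0.000882, exact permutation p = 0.0016). The remaining 6 were *Eaf2* (log2 -0.47), a partner of the transcription elongation factor ELL, *Kctd4* (-0.43), *Gpsm2* (-0.40), which orients the mitotic spindle, the calcium-binding *Cabp7* (-0.39), *Wasfl* (-0.38) and the zinc finger gene *Zfhx4* (-0.37). *Slamf1*, which encodes the lymphocyte receptor CD150, was among the 10 smallest p and was a well-expressed gene, at a mean log2 value of 7.99 ± 0.17 in MONW-Lep (SD, n = 9) and 8.26 ± 0.13 in MONW (SD, n = 8). It lay below every MONW array in 7 of 9 MONW-Lep arrays (log2 -0.27, SE 0.08, limma p = 0.00126, exact permutation p = 0.00259).

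**Figure D2:**
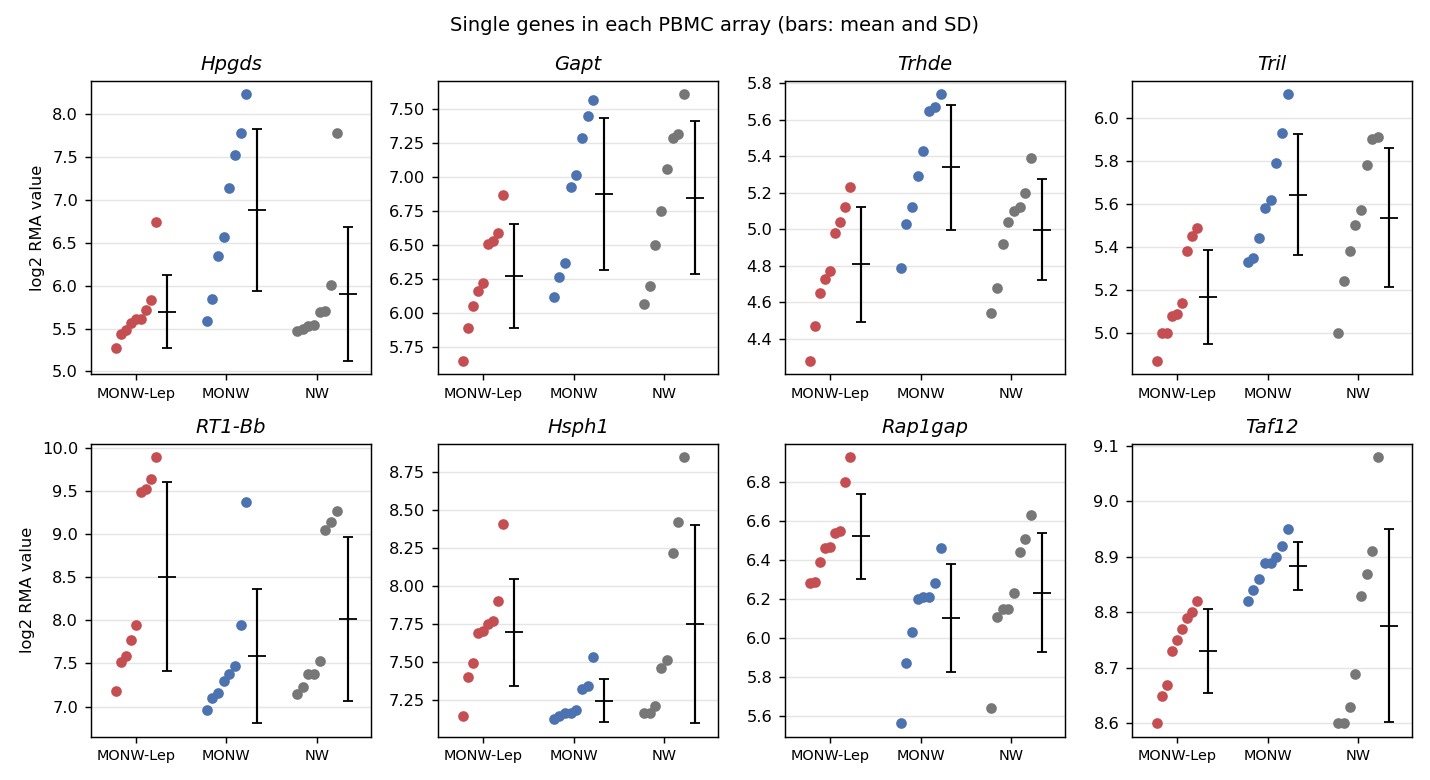
Log2 RMA values (y axis) of 8 genes in each PBMC array, with MONW-Lep, MONW and NW from left to right, and the mean and SD of each group beside its points. *Hpgds* is tight in MONW-Lep except for the array at 6.74, *RT1-Bb* is split with nothing between 7.94 and 9.05, and *Taf12* shows no overlap between MONW-Lep and MONW.

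Among the genes with higher levels past the threshold, *RT1-Bb* had the largest difference. It encodes the beta chain of a rat MHC class II molecule, which presents peptides to helper T cells. Its log2 values were 7.18, 7.94 and 9.89 (lowest, median, highest) in MONW-Lep, against 6.96, 7.34 and 9.37 in MONW and 7.15, 7.46 and 9.26 in NW. The values split in every group, with 4 of 9 MONW-Lep, 1 of 8 MONW and 3 of 8 NW arrays at 9.05 or above and the other arrays at 7.94 or below. The mean difference of 0.92 (SE 0.42) had a limma p of 0.0381 and an exact permutation p of 0.063, and it passed the threshold in only 7 of 17 fits that left out an array, between 0.74 and 1.17. The MONW-Lep array replicate 3 and the MONW array replicate 4 were each the highest of their group. *RT1-Ba*, the alpha chain of the same molecule, differed by -0.13 (SE 0.21). *RT1-DOb*, a chain of the class II modulator DO, had higher levels (log2 0.31, SE 0.13, limma p = 0.0229, exact permutation p = 0.0485), with 4 of 9 MONW-Lep arrays above every MONW array. Of 18 measured class II genes these were the only 2 past the threshold (11.1%, against 2.45% of all genes), 8 of 18 lay above 0, and the median was -0.05. *Ciita*, the class II transactivator, differed by -0.13 (SE 0.17) and the invariant chain *Cd74* by 0.03 (SE 0.11).

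*Hsph1*, a large cochaperone of the heat shock family, had log2 values of 7.14, 7.70 and 8.41 (lowest, median, highest) in MONW-Lep, against 7.12, 7.17 and 7.53 in MONW and 7.16, 7.48 and 8.85 in NW. The MONW arrays lay within a narrow range, and 6 of 9 MONW-Lep arrays were above all of them. The mean difference was 0.45 (SE 0.19, limma p = 0.0287, exact permutation p = 0.00309), which is 1.37-fold. Without MONW-Lep replicate 7, the highest array, it was 0.36 and missed the threshold. Of other heat shock genes, *Hspa1a* was at -0.13 (SE 0.11), *Hspd1* at 0.12 (SE 0.07) and *Hsf1*, the heat shock transcription factor, at 0.02 (SE 0.09). Of 30 measured genes of the heat shock and unfolded protein response 2 had higher levels past the threshold (6.67%, against 1.34% of all genes), *Hsph1* and *Chac1* (log2 0.34, SE 0.13, limma p = 0.0147, exact permutation p = 0.0417), a glutathione-degrading enzyme induced by the Atf4 arm of that response, and *Atf4* itself differed by -0.02 (SE 0.11).

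The sequences before the transcription starts of *Hsph1*, *RT1-Bb* and *RT1-DOb* are shown because these are the higher genes whose upstream motifs are best known, the heat shock element for *Hsph1* and the CCAAT-type Y box of MHC class II promoters for the others. They are the 250 bases up to the transcript start that RefSeq's promoter table uses (GRCr8), which for *RT1-DOb* lies slightly inside the annotated bounds of the gene, with *Hsph1* at chr12:10427118-10427367 on the plus strand, *RT1-Bb* at chr20:4604119-4604368 and *RT1-DOb* at chr20:4627524-4627773, both on the minus strand. Capitals mark GAANNTTC in *Hsph1* and ATTGG, or CCAAT on the other strand, in the class II genes.
Hsph1: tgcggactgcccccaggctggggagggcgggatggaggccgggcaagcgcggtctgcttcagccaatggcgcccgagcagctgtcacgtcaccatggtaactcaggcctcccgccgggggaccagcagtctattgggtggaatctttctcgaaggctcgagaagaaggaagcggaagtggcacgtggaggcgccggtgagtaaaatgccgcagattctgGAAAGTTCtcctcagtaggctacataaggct
RT1-Bb: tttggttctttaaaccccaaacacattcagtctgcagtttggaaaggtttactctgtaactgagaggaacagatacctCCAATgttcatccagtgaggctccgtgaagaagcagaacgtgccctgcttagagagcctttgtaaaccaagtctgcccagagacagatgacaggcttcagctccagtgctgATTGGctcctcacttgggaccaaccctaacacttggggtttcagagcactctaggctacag
RT1-DOb: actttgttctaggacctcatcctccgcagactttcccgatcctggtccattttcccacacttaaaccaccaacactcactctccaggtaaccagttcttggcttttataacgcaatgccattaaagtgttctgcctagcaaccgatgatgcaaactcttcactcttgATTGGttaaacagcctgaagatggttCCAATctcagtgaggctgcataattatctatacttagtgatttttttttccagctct
*Hsph1* held 1 match to GAANNTTC, which begins 31 bases before the start. The same units in the opposite order were not searched, and the printed *Hsph1* window holds such a stretch, unmarked. The count for *Hsph1* is therefore not a count of all possible heat shock elements. *RT1-Bb* held 2 matches, which begin 172 and 61 bases before the start, and *RT1-DOb* held 2, at 83 and 57 bases. Of 33469 windows of the same length, 7.23% held GAANNTTC, counted in that order only. ATTGG on either strand was held by 34%, so the class II matches are common letters. A match is a description of the sequence.

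*Rap1gap*, which switches off the small GTPase Rap1, also had higher levels. Its log2 values were 6.28, 6.47 and 6.93 (lowest, median, highest) in MONW-Lep, against 5.56, 6.20 and 6.46 in MONW, and 5 of 9 MONW-Lep arrays were above every MONW array. The difference was 0.42 (SE 0.12, limma p = 0.00237, exact permutation p = 0.0014), and it passed in all 17 fits that left out an array. *Epha5*, an ephrin receptor (log2 0.44, limma p = 0.0223, exact permutation p = 0.0603), and *Galntl6*, of the family that starts mucin-type sugar chains (log2 0.42, limma p = 0.00811, exact permutation p = 0.0115), were of like size. The other genes with the largest higher levels were the olfactory receptors *Or7e166* (0.46), *Or1m1* (0.40) and *Or4c111* (0.40), the DnaJ-family gene *Dnajb7* (0.41) and *C10h5orf47* (0.41), all but *Or1m1* at a mean log2 value below 5 in both groups. *Or7e166* averaged 3.16 ± 0.31 in MONW-Lep (SD, n = 9) and 2.70 ± 0.32 in MONW (SD, n = 8), in the range where the array has little signal. The 10 genes with the largest higher and the 10 with the largest lower levels were picked among those past the threshold, so counts over these 20 are a description. Of them 17 had an exact permutation p under 0.05 and 15 passed in every fit that left out an array.

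In 1 gene of 15049 (0.00664%), *Taf12*, the groups did not overlap. It was picked after its values were seen. *Taf12* is a subunit of the general transcription factor TFIID. Its log2 values ran from 8.60 to 8.82 in MONW-Lep, against 8.82 to 8.95 in MONW and 8.60 to 9.08 in NW, the highest MONW-Lep and the lowest MONW value being equal at this rounding. The MONW arrays were close together, and the NW arrays covered the range of both other groups. The difference was small (log2 -0.15, SE 0.06, limma p = 0.0268), and the exact permutation p over 24310 regroupings was 8.23e-05. Since the gene was picked because its groups do not overlap, a very small exact p came with that choice and is a description.

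Genes of leptin and insulin signalling did not move as a group. Of 40 measured members, 1 passed the threshold (2.5%, against 2.45% of all genes), 22 lay above 0 and the median was 0.02. That gene was *Stat5a*, with log2 values of 8.88, 9.07 and 9.31 (lowest, median, highest) in MONW-Lep, against 8.77, 8.93 and 9.08 in MONW, and the groups overlapped. It averaged 9.09 ± 0.14 in MONW-Lep (SD, n = 9) and 8.94 ± 0.12 in MONW (SD, n = 8; log2 0.16, SE 0.07, limma p = 0.0357, exact permutation p = 0.0239), and its p was 0.0592 with the platelet score as a covariate. *Stat5b* differed by 0.12 (SE 0.09), *Stat3* by 0.04 (SE 0.07), *Jak2* by -0.10 (SE 0.12), the feedback inhibitors *Socs3* by 0.11 (SE 0.27) and *Cish* by 0.25 (SE 0.26). *Lep* itself, which blood cells hardly express, stood at 5.10 ± 0.19 in MONW-Lep (SD, n = 9) and 5.05 ± 0.19 in MONW (SD, n = 8; limma p = 0.651, exact permutation p = 0.626). No gene passed among those of fatty acid uptake and oxidation (0 of 44), sterol and fatty acid synthesis (0 of 39), glycolysis (0 of 29) or the respiratory chain (0 of 66), with medians from -0.02 to 0.02.

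No inflammatory or interferon gene passed the threshold (0 of 38 and 0 of 41), nor did a Toll-like receptor gene (0 of 21), against 2.45% of all genes. With the platelet score as a covariate 1 inflammatory gene had lower levels past it. Without the 4 arrays with the lowest platelet score, 1 inflammatory and 1 interferon gene had. Interferon-response genes leaned below 0, with 8 of 41 above 0, against 50.1% of all genes, but the median was only -0.05. The members with the smallest p were *Usp18*, which removes the ubiquitin-like Isg15 (log2 -0.27, limma p = 0.068, exact permutation p = 0.0469), and the chemokine *Cxcl10* (-0.18, limma p = 0.097, exact permutation p = 0.06). *Il1b* differed by -0.36 (SE 0.28), *Tnf* by -0.06 (SE 0.13) and *Il6* by -0.02 (SE 0.12). In the chemokine list 2 of 46 genes had higher levels past the threshold (4.35%, against 1.34% of all genes), *Ccl7* (log2 0.23, SE 0.09, limma p = 0.012, exact permutation p = 0.0114) and *Ccl27* (log2 0.32, SE 0.14, limma p = 0.034, exact permutation p = 0.0213), both at a low mean log2 value below 6. *Ccl7* attracts monocytes, and 7 of 9 MONW-Lep arrays were above every MONW array. Among immediate early genes *Myc*, a driver of growth, was the only 1 of 30 past the threshold (3.33%, against 2.45% of all genes). It stood at 10.38 ± 0.32 in MONW-Lep (SD, n = 9) and 10.04 ± 0.32 in MONW (SD, n = 8), with a limma p of 0.0198 and an exact permutation p of 0.0437. *Tgfb3*, a growth factor that restrains immune cells, was the only 1 of 28 TGF-beta signalling genes past the threshold (3.57%, against 2.45% of all genes). It stood at 5.03 ± 0.25 in MONW-Lep (SD, n = 9) and 5.30 ± 0.17 in MONW (SD, n = 8), with a limma p of 0.0167 and an exact permutation p of 0.0219. Of 75 ribosomal protein genes 2 had higher levels past it (2.67%, against 1.34% of all genes), *Rpl8* (log2 0.18) and *Rps2* (0.12), and both missed it with the platelet score as a covariate.

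The markers of the main blood cell types also stood nearly level. Of 19 T cell genes 16 lay above 0, with a median of 0.02, and *Bcl11b*, a T cell transcription factor, had higher levels (log2 0.15, SE 0.07, limma p = 0.0466, exact permutation p = 0.0371). Of 19 natural killer and cytotoxic genes 15 lay above 0 (median 0.11), led in size by *Gzmb* (0.22, SE 0.17), while *Ncr3*, an activating receptor, had lower levels (log2 -0.15, limma p = 0.0378, exact permutation p = 0.0103). Monocyte genes lay above 0 in 4 of 22 (median -0.10) and B cell genes in 5 of 16 (median -0.05), with 0 past the threshold in either. With the platelet score as a covariate, 12 of 22 monocyte genes lay above 0 (median 0.01), 10 of 16 B cell genes (median 0.01) and 11 of 19 T cell genes. Without the 4 arrays with the lowest platelet score, 6 of 22, 3 of 16 and 15 of 19 did. *Batf3*, a transcription factor of cross-presenting dendritic cells, was the only 1 of 9 dendritic cell genes past the threshold (11.1%, against 2.45% of all genes). It differed by -0.15 (limma p = 0.0434, exact permutation p = 0.00893). Erythroid genes, with 0 of 19 past it, had a median of -0.01 in all arrays and of -0.16 with the platelet score as a covariate. In bulk PBMC, fewer cells of a type and less RNA per cell cannot be told apart.

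**Figure D3:**
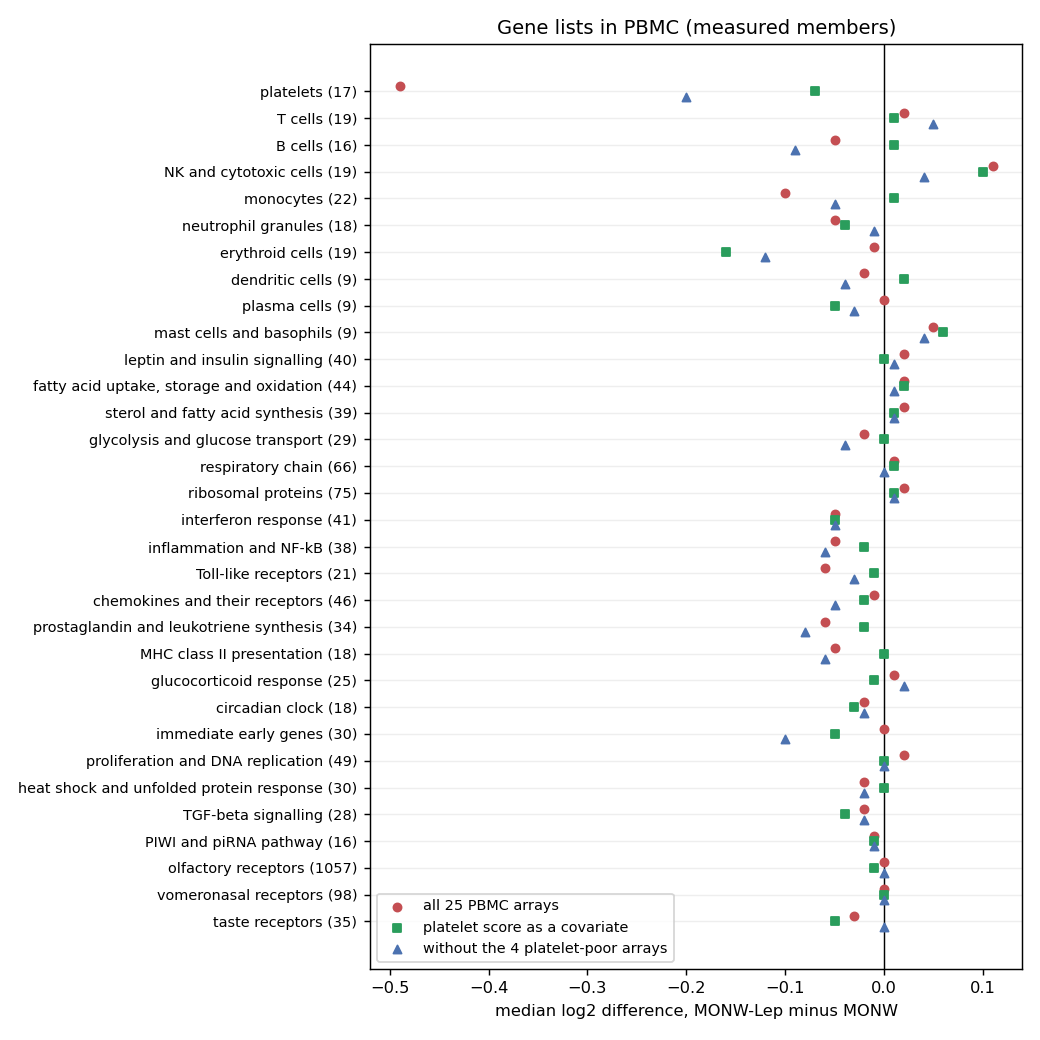
Median log2 difference, MONW-Lep minus MONW, of each gene list (x axis, with the number of measured members beside its name) in all 25 PBMC arrays, with the platelet score as a covariate and without the 4 platelet-poor arrays. The platelet list stands alone at -0.49 and moves to -0.07 with the covariate and to -0.20 without those arrays, while the other lists stay between -0.16 and 0.11.

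Platelet genes had the most negative median of the lists and the widest spread between arrays. *Pf4*, platelet factor 4, had log2 values of 8.76, 12.33 and 12.65 (lowest, median, highest) in MONW-Lep, against 9.86, 12.40 and 12.74 in MONW and 9.20, 12.15 and 12.76 in NW. *Ppbp*, the platelet basic protein, had 6.79, 9.45 and 10.68 in MONW-Lep, against 6.99, 9.82 and 10.87 in MONW and 6.93, 9.45 and 10.70 in NW. The medians were close and each group held at least 1 array far below the others. *Pf4* differed by -0.44 (SE 0.53, limma p = 0.41, exact permutation p = 0.46) and *Ppbp* by -0.50 (SE 0.55, limma p = 0.37, exact permutation p = 0.435). *Itga2b*, the platelet integrin alpha chain named beside them, was not analysed here. All 17 measured platelet genes lay below 0, from *Selp* at -0.07 to *F13a1* at -0.66. Of these, 0 of 17 passed the threshold, against 2.45% of all genes, so the shared direction was smaller than the spread between rats.

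A platelet score, the mean of *Pf4* and *Ppbp* less their mean over the 25 PBMC arrays, was below -1 in 4 arrays. These were MONW-Lep replicates 5 (-2.83) and 8 (-2.10), MONW replicate 7 (-2.18) and NW replicate 6 (-2.54), and the other 21 arrays lay between -0.40 and 1.16. Of the variance between arrays 21.2% fell on a first principal component along which the same 4 arrays lay apart from the rest. The difference of the mean scores, MONW-Lep minus MONW, was -0.47, and -0.17 without the platelet-poor arrays. It was -0.14 without MONW-Lep replicate 5 and -0.82 without MONW replicate 7, so single arrays set its size.

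**Figure D4:**
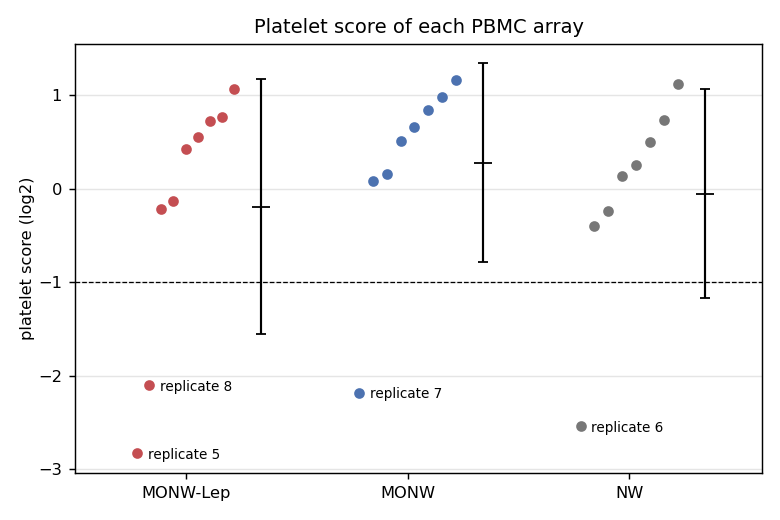
Platelet score of each PBMC array (y axis, log2), with MONW-Lep, MONW and NW from left to right, the mean and SD of each group beside its points and the limit of -1 as a dashed line. Replicates 5 and 8 of MONW-Lep, 7 of MONW and 6 of NW lie below -2, and the other arrays lie between -0.40 and 1.16.

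Taking platelet content into account left the number of genes past the threshold much the same but changed many of the genes. With the platelet score as a covariate 378 genes (2.51%) passed, 285 of them among the original 369, and without the 4 platelet-poor arrays 366 (2.43%) passed, 198 of them among the 369. In all 3 fits 179 genes passed, and all 369 kept their sign. The 369 were picked on arrays that both other fits use again in whole or in large part, so these counts are a description. *Hpgds* was at -1.19 with the covariate and -1.24 without those arrays, *Tril* at -0.50 and -0.51, *Rap1gap* at 0.42 and 0.45, and *Slamf1* at -0.29 and -0.34, each past the threshold in both. *RT1-Bb* was at 0.93 with the covariate, past the threshold, and at 0.79 without those arrays, where it missed it, as did *Cabp7* at -0.26. Of the same 20 genes 20 passed with the covariate and 18 without the platelet-poor arrays. Over the 46 named genes past the threshold, 9 missed it with the covariate, among them *Stat5a*, *Bcl11b*, *Ptger4* and *RGD1559600*, and 12 without the platelet-poor arrays. The platelet genes themselves came to a median of -0.07 with the covariate, which *Pf4* and *Ppbp* define, and *Pf4* to 0.02.

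Genes that the study names from PBMC were chosen on MONW against NW, by a shared direction in PBMC and hippocampus. That comparison uses the same MONW arrays, so their place here is not independent of that choice. Of 6 measured, *Spata3* (log2 -0.20, SE 0.09, limma p = 0.0434, exact permutation p = 0.0531) and *RGD1559600* (-0.21, SE 0.10, limma p = 0.0472, exact permutation p = 0.0884) had lower levels past the threshold. *Piwil1*, which binds small RNAs that silence transposons in germ cells, had log2 values of 6.22, 6.43 and 6.61 (lowest, median, highest) in MONW-Lep, against 5.96, 6.60 and 6.75 in MONW and 5.62, 6.28 and 6.45 in NW. The MONW-Lep values lay within those of MONW (log2 -0.12, SE 0.11, limma p = 0.303, exact permutation p = 0.256). *Piwil1* differed from NW by 0.24 in MONW-Lep and by 0.36 in MONW, both past the unadjusted threshold. The study describes *Piwil1* as unaltered in MONW-Lep on the basis of RT-qPCR, while its PBMC array comparison covered NW and MONW. That is another measure and another test than the array values here. The bitter taste receptor *Tas2r119* differed by -0.19 (exact permutation p = 0.112), the kinase-like *Trib1* by -0.07 (exact permutation p = 0.716) and the olfactory receptor *Or4c3*, the study's *Olr729*, by 0.02 (exact permutation p = 0.864). For MONW against NW the study reports *Trib1* as higher and *Olr729* as lower. In the fit used here the signs were opposite, with -0.35 for *Trib1*, short of the threshold, and 0.28 for *Or4c3*, past it. *Spata3* (0.20), *Tas2r119* (0.29) and *RGD1559600* (0.21) had the study's direction, as had *Piwil1*. Chemosensory receptor genes as families were split in direction. Of 1057 olfactory receptor genes 28 had higher and 20 lower levels past the threshold (4.54%), of 98 vomeronasal genes 2 and 2 (4.08%) and of 35 taste receptor genes 2 and 0 (5.71%), at median levels of 4.42, 3.91 and 4.26 in MONW-Lep. These shares are near the 4.24% of all genes with a mean below 5.

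In the hippocampus of the same rats, 466 genes (3.1%) passed the threshold for MONW-Lep against MONW, and 0 at an adjusted p under 0.05 in limma. Of the 369 PBMC genes, 7 passed there in the same and 13 in the opposite direction. None of the 20 genes with the largest PBMC differences past the threshold passed in the hippocampus (0 of 20). *Hpgds* differed there by -0.11, *RT1-Bb* by -0.01 and *Rap1gap* by -0.05. The difference between the tissues was tested within each rat, and 394 genes (2.62%) passed at an unadjusted p under 0.05 and 0 at an adjusted one in limma. Since that test uses the PBMC arrays again, its values for genes picked on them are a description. It gave a PBMC minus hippocampus difference of -1.07 for *Hpgds*, -0.55 for *Tril* and 0.47 for *Rap1gap*, each past the unadjusted threshold. *RGD1559600* differed in opposite directions, by -0.21 in PBMC and by 0.40 in the hippocampus, both past the unadjusted threshold, with a difference between the tissues of -0.61.

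**Figure D5:**
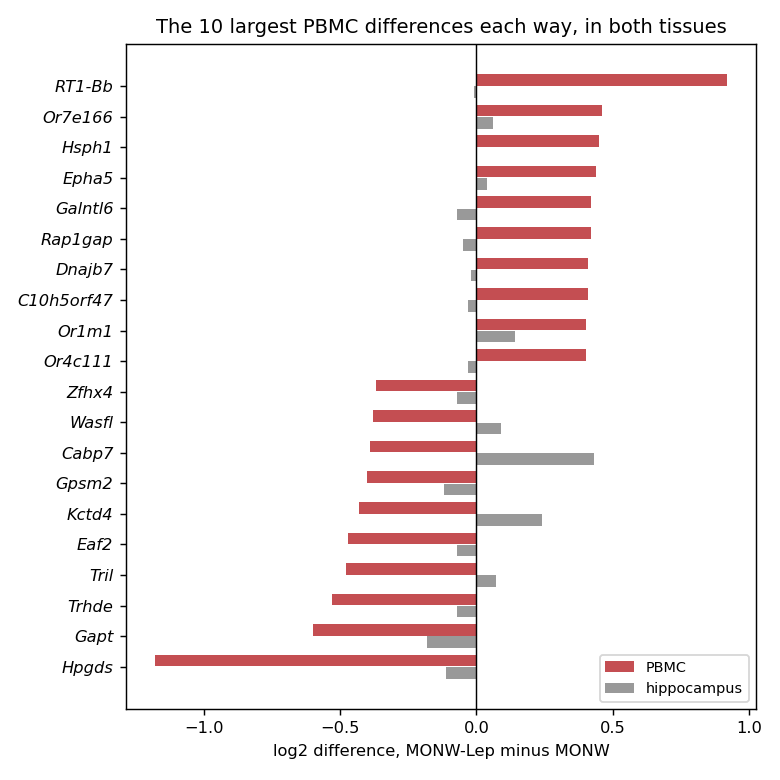
Log2 difference, MONW-Lep minus MONW (x axis), of the 10 genes with the largest higher and the 10 with the largest lower levels past the threshold in PBMC, with the hippocampus of the same rats beside each. The hippocampal bars run from -0.18 for *Gapt* to 0.43 for *Cabp7*, which has the opposite sign in PBMC, and none passed the threshold there.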

How the data were processed

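RNA of PBMC, isolated on an Optiprep gradient, and of the hippocampus was hybridized to Affymetrix Rat Clariom S arrays, 1 per rat and tissue. The deposited values are log2 values per transcript cluster that the authors made with RMA, that is, background correction, quantile normalization between arrays and a summary over each cluster's probes. The submitters' processing notes also name R 4.0.4 and limma. Quantile normalization hides a shift shared by all genes. Precision is limited by how many arrays each group has.

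Of 24871 clusters, 1683 are controls and 8139 have no symbol in the annotation used, which leaves 15049 tested clusters (15037 symbols, updated through RefSeq, GRCr8). PBMC were fitted with limma 3.58.1 in R 4.3.3 (lmFit, eBayes, 3 groups, 25 arrays, no covariate), and MONW-Lep was compared with MONW. Named genes also had two-sided exact permutation tests over 24310 regroupings. The hippocampus was fitted alike, and the tissue difference on within-rat differences. The platelet score used *Pf4* and *Ppbp*, since *Itga2b* was not analysed here.

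Named genes were the 10 largest and 10 smallest differences past the threshold, the 10 smallest p, any gene at an adjusted p under 0.05, the 4 smallest p of each list, *Lep*, *Pf4*, *Ppbp* and the study's PBMC genes. *Taf12* and other list members given with their values fall outside that rule. The comparison, lists and rules were chosen with earlier results of these data known. Where a symbol had several clusters, lists used the one with the highest mean. Alternatives covered the arrays fitted, the clusters, the normalization, the variance model, cell-type scores as covariates and each array left out. The fit was tested on simulated data. Figures were drawn with matplotlib 3.10.9.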

Additional observations from a re-analysis of the deposited data

Results flagged for a closer look

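In 8 of 108 groups of 8 or 9 PBMC arrays that were tested (the MONW-Lep and MONW values of the genes named with values, and the platelet score), 1 array stood far from the rest of its group by Dixon's criterion, where chance gives about 1 in 20, or 5.4. MONW replicate 7 accounts for 4 of the 8, but *Pf4*, *Ppbp* and the platelet score made from them are not separate observations. The tested groups share arrays, so the count of 5.4 is only a rough guide. It was the lowest MONW array for *Pf4* (9.86, next 12.10), *Ppbp* (6.99, next 9.28), the platelet score (-2.18, next 0.08) and *RT1-DOb* (7.83, next 8.34). Without it *RT1-DOb* differed by 0.23 and missed the threshold. MONW replicate 4 was the highest for *RT1-Bb* (9.37, next 7.94), the gene that is split in all groups, and without it the difference was 1.17. MONW-Lep replicate 1 was the highest for *Hpgds* (6.74, next 5.83), and without it the difference was -1.31. MONW replicate 6 was the lowest for *Piwil1* (5.96, next 6.46), and without it the difference was -0.20. MONW-Lep replicate 6 was the highest for *Tas2r119* (6.35, next 5.82), and without it the difference was -0.27 and passed the threshold. Whether platelet content or another property of these arrays sets the values was not tested. No named gene differed between PBMC and hippocampus at an adjusted p under 0.05 in limma.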

How the results depend on the processing

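No setting gave a gene at an adjusted p under 0.05 (0 genes also with each array left out in turn). The number of genes past the unadjusted threshold moved by over 1.5 times only with the clusters tested, to 614 with all 23188 non-control clusters and to 129 with the 8069 clusters above the median level. Under the same restriction to the brighter clusters, 2 of the 20 genes with the largest differences and 12 list members, against 72 in the main fit, were past the threshold. The 2 genes were *RT1-Bb* and *Hsph1*. The others of the 20 had a mean below the limit of 6.72 and were not tested in that fit, and list members below it were not tested either. Leaving out each array in turn gave 343 to 487 genes (without MONW-Lep replicate 8 and without MONW replicate 7), 17 to 20 of the 20 genes, 56 to 76 list members, and a platelet score difference from -0.82 to -0.14. The test between tissues gave 631 genes with all clusters, 145 with the brighter ones and 358 to 506 with each rat left out. Of 46 named genes past the threshold, 22 passed in every alternative that could test them and none reversed, but only 13 of the 46, and 2 of the 22 (*Myc* and *Slamf1*), were among the brighter clusters. Of the other named genes, *Pf4* turned to 0.02 with the platelet score as a covariate, *Trib1* to 0.05 without MONW replicate 8 (-0.17 to 0.05 with each array left out), and *Or4c3* to -0.01 with the monocyte score and to -0.05 to 0.09 with each array left out; the causes were not tested. Leaving out NW replicate 6 and leaving out the 4 platelet-poor arrays were chosen after the data were seen. Of the 46 named genes, 24 passed with each array left out in turn and 22 did not, from 5 of 17 such fits for *Ptger4*, *Rps2* and *Vom2r6* through 7 for *RT1-Bb*, *Dnajb7* and *Batf3*, 10 for *Stat5a* and *Ccl27* and 14 for *Epha5* to 16 for *Hsph1* and *Taf12* (-0.13 without MONW-Lep replicate 2).

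Replicate numbers were not taken to pair the rats. Same-numbered MONW-Lep and MONW arrays deviated from their group means with correlations from -0.213 to 0.448, and 6 of 8 were above 0.1 but numbers 7 and 8 below it. With a replicate block, 405 genes passed the threshold, 0 at an adjusted p under 0.05, 19 of the 20 genes with the largest differences, 76 list members, and 465 genes in the test between tissues. Of the 46 named genes 8 missed it with the block, namely *Dnajb7*, *Stat5a*, *Bcl11b*, *Ncr3*, *Batf3*, *Rps2*, *Vom2r50* and *Spata3*.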

Other observations

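Further gene groups of PBMC showed the same picture, set beside the 2.45% of all genes that passed the threshold. No gene passed the threshold among those of proliferation and DNA replication (0 of 49, median 0.02), the glucocorticoid response (0 of 25, median 0.01), the circadian clock (0 of 18, median -0.02) and the PIWI pathway (0 of 16, median -0.01), nor among the markers of plasma cells (0 of 9) and of mast cells and basophils (0 of 9, median 0.05). Of the bitter taste receptor genes, which detect bitter compounds on the tongue and elsewhere, *Tas2r13* had a median of 4.03 in MONW-Lep and of 3.65 in MONW, with 6 of 9 MONW-Lep arrays above every MONW array (log2 0.29, SE 0.10, limma p = 0.00463, exact permutation p = 0.00679). *Tas2r129* differed by 0.28 (limma p = 0.0369, exact permutation p = 0.047). The vomeronasal genes past the threshold went both ways, *Vom2r50* (0.20) and *Vom2r55* (0.18) with higher and *Vom2r1* (-0.25) and *Vom2r6* (-0.27) with lower levels. All lay at mean log2 values below 5, where the array gives little signal.

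The values against NW share the NW arrays and are given side by side. *Hsph1* differed from NW by -0.06 in MONW-Lep, short of the threshold, and by -0.51 in MONW, past it. *Tgfb3* differed from NW by 0.27 in MONW-Lep and by 0.54 in MONW, both past it. *Tril* differed from NW by -0.37 in MONW-Lep, past the threshold, and by 0.11 in MONW, short of it.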
